A study of Mus musculus with 4 samples.

Results

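Immature neurons and the neurites they send out were followed here through 10 genes, *Dcx*, *Sox11*, *Sox4*, *Sox2*, *Map2*, *Mapt*, *Tubb3*, *Ncam1*, *Stmn1* and *Stmn2*, named by symbol, without a threshold on their values. They were taken from an RNA sequencing table of mouse hypothalamus that lists 30930 RefSeq transcripts, of which 30783 could be assigned to 16329 genes. The transcripts of each symbol were summed, and all 10 genes passed the filter on low counts, so that they are 10 of 14325 genes tested. The mice were male C57BL/6, 8 weeks old when a western diet (WD, 60% fat diet with 30% sucrose to drink) began, and they received it for 12 weeks. WT WD mice were wild-type littermates and *Tas1r3*-/- WD mice carried a germline deletion of *Tas1r3*, the sweet and umami taste receptor subunit, backcrossed to C57BL/6 for at least 7 generations. The knockout is present in every cell from conception, so that no value below belongs to a particular tissue or time of loss. Each group has 2 libraries here, whereas the methods of the study state 3 mice for each group, and no label says whether 1 library is 1 mouse. The p-values therefore measure the spread between these libraries, which may be technical in part. Both groups received WD, and values for the normal diet were not analysed here.

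Doublecortin (*Dcx*) binds microtubules in neuroblasts and migrating young neurons and is lost as a neuron matures. *Sox2* keeps neural stem and progenitor cells in their state and in the adult hypothalamus is also found in tanycytes and other glia, whereas *Sox4* and *Sox11* act later, when a progenitor turns on neuronal genes. *Map2* stabilizes microtubules in dendrites and *Mapt* (tau) does so in axons, *Tubb3* is a neuronal beta-tubulin, the stathmins *Stmn1* and *Stmn2* take up free tubulin and destabilize microtubules, and *Ncam1* is an adhesion molecule that carries polysialic acid on migrating neurons. In the adult hypothalamus most of this RNA belongs to mature neurons and glia, since few cells there are neuroblasts.

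The study also measured *Dcx*, *Map2* and *Sox11* by quantitative PCR, and its primers are printed to show which transcripts such a measurement can read. The transcripts are those of GENCODE M39 on GRCm39 (mm39). Capitals mark a primer base that differs from the best place in the *Dcx* or *Sox11* canonical transcript, and the *Map2* primers are printed as they match ENSMUST00000437487.1, a transcript that is not the canonical one.
Dcx forward: aaactggaaaccggagttgtc
Dcx reverse: cgtcttggtcgttacctgagt
Map2 forward: acatcaaacattctgctgggggcg
Map2 reverse: caagcgccgcagtgacatcct
Sox11 forward: Cgacgacctcatgttcgacc
Sox11 reverse: gacagggaTaggttccccg
The *Dcx* primers lie in coding sequence of exon 3 (chrX:142706115-142706135, minus strand) and exon 5 (chrX:142658751-142658771) and give a product of 292 bases in 6 of 9 annotated transcripts, 4 of them protein-coding. The *Map2* forward primer matches no exon of the canonical transcript of 9705 bases. It lies at chr1:66470750-66470773 on the plus strand, in a coding exon of 93 bases (chr1:66470686-66470778) that 7 of 43 *Map2* transcripts hold, and the reverse primer lies at chr1:66478129-66478149 in coding sequence of the last exon. A *Map2* product of 423 bases was found in 5 transcripts, all protein-coding and 5309 to 5715 bases long. The *Sox11* primers lie in the single, coding exon (chr12:27391450-27391469 and chr12:27391368-27391386, minus strand) with the differences C1A and T9C, counted from 1 at the primer's 5′ end with the primer's base first.

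The authors' estimated counts of reads summed to between 5874782 and 6273772 per library. A gene without counts may still have up to 3 by counting error, or 0.486 to 0.525 CPM (counts relative to library size, for this limit without further scaling). All other CPM values were also scaled by the TMM method of edgeR. *Tas1r3* was at 6.07 and 4.45 CPM in WT WD against 1.12 and 1.23 CPM in *Tas1r3*-/- WD, which is -2.13 on the log2 scale (standard error 0.42, edgeR's quasi-likelihood test, adjusted p = 0.754), and the order follows the genotype labels. The library labelled WT WD replicate 2 goes against its tissue label. All 20 genes of a hypothalamus list were lowest in it, with a summed level of 56.3 CPM against 1447 to 2081 CPM in the other 3 libraries. *Pmch*, the melanin-concentrating hormone gene, was at 6.66 CPM there and at 768, 373 and 559 CPM elsewhere, and the vasopressin gene *Avp* at 2.30 CPM and at 335, 197 and 203 CPM. All 12 genes of a thalamus list were highest in the same library, with 3696 CPM against 422 to 725 CPM, and the choroid plexus list reached 772 CPM against 43.0 to 61.5 CPM, of which *Ttr* made 678 CPM. *Tas1r3*-/- WD replicate 1 stood apart by pituitary hormone genes, at 1481 CPM for the list against 4.88 to 35.9 CPM in the other libraries, with *Gh* at 762 CPM and *Prl* at 499 CPM. Over all genes the WT WD libraries differed by 0.76 (root mean square, log2 CPM) and the *Tas1r3*-/- WD libraries by 0.37, and for the 10 genes these distances were 0.46 and 0.23. The differences of the 10 genes, of the *Dcx* and *Map2* transcripts and of the lists are therefore also given without WT WD replicate 2. The part of these markers in the results was not tested.

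**Figure D1:**
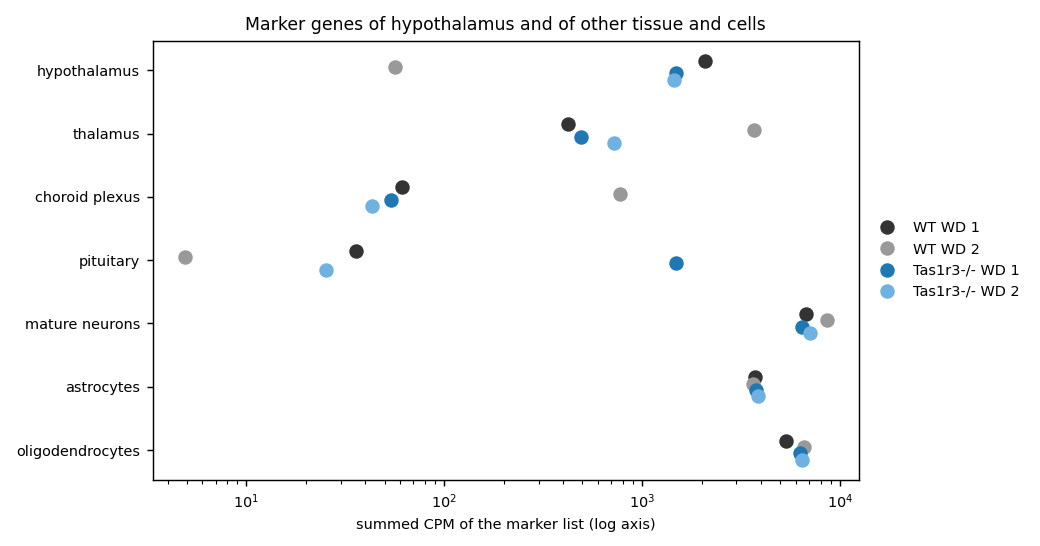
Summed level (CPM, log axis) of 7 lists of marker genes in each of the 4 libraries, 1 point per library. WT WD replicate 2 has the lowest sum for hypothalamus, 56.3 CPM, and the highest for thalamus, 3696 CPM, and choroid plexus, 772 CPM, while *Tas1r3*-/- WD replicate 1 has the highest for pituitary, 1481 CPM.

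None of the 10 genes passed the test between the genotypes. A call needed an adjusted p under 0.05 (edgeR's quasi-likelihood test, Benjamini-Hochberg over all genes) and at least a 1.5-fold difference, and 0 of the 10 reached it, as did 0 of all 14325 genes (0%), with adjusted p between 0.754 and 0.871 for the 10 genes. At edgeR's unadjusted threshold of 0.05 there were 2 of 10, *Sox11* higher and *Sox2* lower in *Tas1r3*-/- WD, beside 772 of all genes tested (5.39%, made up of 3.5% higher and 1.89% lower). DESeq2 called 8 of all genes (0.0558%) and none of the 10, and at its unadjusted threshold it named *Sox2* and *Map2*, beside 2.73% of all genes. The groups did not overlap for 7 of the 10 genes, against 39.5% of all genes tested. The knockout libraries were the higher ones for 4 genes (*Dcx*, *Sox11*, *Map2* and *Mapt*), against 20.5% of all genes, and the lower ones for 3 (*Sox2*, *Tubb3* and *Stmn2*), against 19%. For *Sox4*, *Ncam1* and *Stmn1* the groups overlapped. A single gene compared 2 against 2 cannot go below p = 0.333 in an exact two-sided permutation test. The median log2 fold change of the 10 genes was 0.14, that of all genes tested was -0.01, and 6 means were higher and 4 lower in *Tas1r3*-/- WD. That median was 0.00156 without *Tas1r3*-/- WD replicate 1 and 0.05 without WT WD replicate 2. In bulk tissue fewer cells of a type and less RNA in each cell cannot be told apart.

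**Figure D2:**
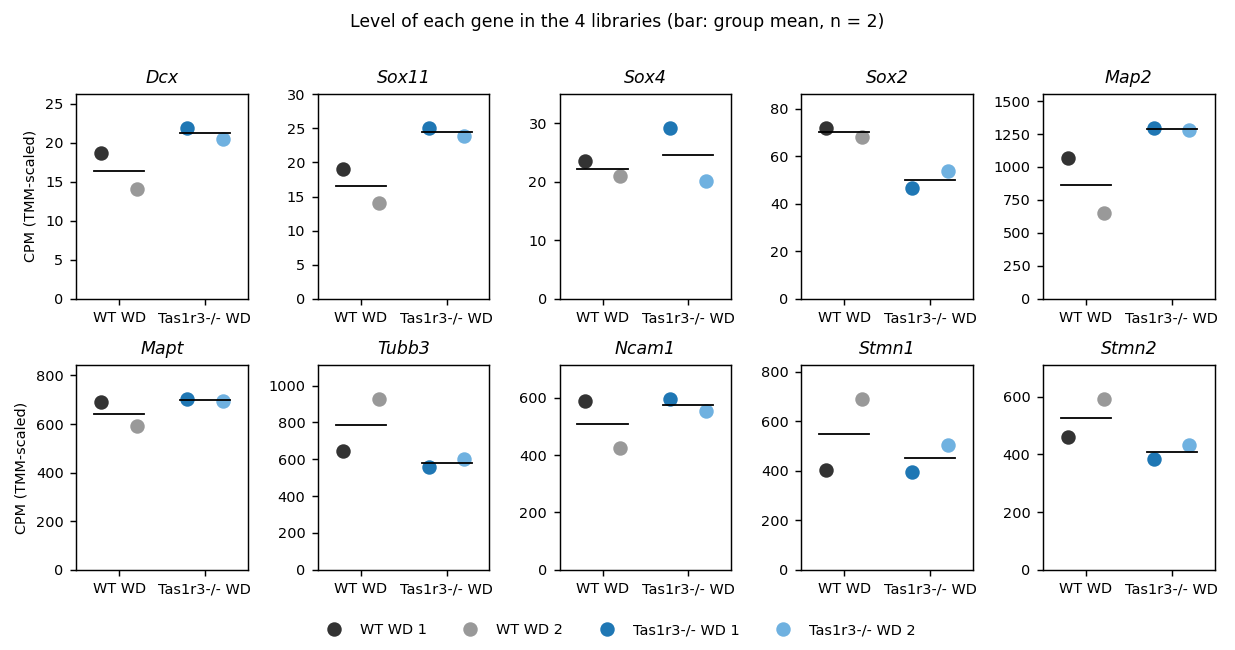
Level of each of the 10 genes (CPM, linear axes from 0) in the 4 libraries, 1 point per library, with a bar at the mean of each group (n = 2). *Map2* sits at 652 CPM in WT WD replicate 2 and between 1069 and 1295 CPM in the other 3 libraries, and *Sox2* at 68.3 and 71.9 CPM in WT WD against 46.6 and 53.7 CPM in *Tas1r3*-/- WD.

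*Dcx*, the neuroblast gene (chromosome X of GRCm39, 142638838 to 142716307, minus strand), was counted 109 and 85.0 times in WT WD against 136 and 117 times in *Tas1r3*-/- WD. Its levels were 18.7 and 14.0 CPM in WT WD replicates 1 and 2 and 21.8 and 20.5 CPM in *Tas1r3*-/- WD replicates 1 and 2. Both knockout libraries were higher, but the gap between the WT WD libraries was wider than the gap from WT WD replicate 1 to either of them. On the log2 scale *Dcx* differed by 0.37 (standard error 0.21, edgeR's adjusted p = 0.754), by 0.18 without WT WD replicate 2 and by 0.60 without WT WD replicate 1.

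*Sox11* (chromosome 12, 27384263 to 27392573, minus strand), the transcription factor of newly committed neurons, was at 19.0 and 14.1 CPM in WT WD against 25.0 and 23.9 CPM in *Tas1r3*-/- WD. The groups did not overlap, and WT WD replicate 2 was again the lowest. Its log2 difference was 0.56 (standard error 0.21, edgeR's adjusted p = 0.754). Leaving out WT WD replicate 2 lowered this to 0.36, and leaving out WT WD replicate 1 raised it to 0.81. *Sox4* (chromosome 13, 29132902 to 29137696, minus strand), its close relative, was at 23.5 and 20.9 CPM in WT WD against 29.2 and 20.1 CPM in *Tas1r3*-/- WD. Here the *Tas1r3*-/- WD libraries held both the highest and the lowest value. Its log2 fold change of 0.15 (standard error 0.24) was 0.08 without WT WD replicate 2 and turned to -0.14 without *Tas1r3*-/- WD replicate 1, the library with pituitary transcripts. An antisense gene, A330102I10Rik, shares 907 exonic bases with *Sox4* and was at 1.89 to 3.33 CPM, and without strand information its reads cannot be told from those of *Sox4*.

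*Sox2* (chromosome 3, 34704554 to 34706610, plus strand), the progenitor and glial factor, went the other way. It was at 71.9 and 68.3 CPM in WT WD against 46.6 and 53.7 CPM in *Tas1r3*-/- WD. The libraries of each genotype lay close together and the groups did not overlap. Its log2 difference was -0.49 (standard error 0.14, edgeR's adjusted p = 0.754). Leaving out WT WD replicate 2 gave -0.52, and leaving out WT WD replicate 1 gave -0.44. The difference was thus as large against the WT WD library that has its hypothalamic markers as against the other. Over all fits that left out a library it stayed between -0.60 and -0.39. *Sox9*, a factor of astrocytes and progenitors looked at after its values were seen, was at 64.0 and 61.5 CPM in WT WD against 51.6 and 41.5 CPM in *Tas1r3*-/- WD. Of the 9 astrocyte markers that include it, 5 had the higher and 4 the lower mean in *Tas1r3*-/- WD. The oligodendrocyte marker *Sox10*, also named after its values were seen, was at 66.6 and 59.3 CPM against 46.0 and 51.4 CPM. Its list of 9 likewise had 5 means higher and 4 lower. The sum over 9 astrocyte markers was 3718 and 3621 CPM in WT WD against 3757 and 3871 CPM in *Tas1r3*-/- WD. That over 10 ependyma and tanycyte markers was 181 and 195 CPM and 155 and 141 CPM. The latter sum joins genes that went opposite ways in WT WD replicate 2, the lowest library for 4 of them and the highest for 6. There *Foxj1* was at 57.0 CPM against 31.1, 27.2 and 30.3 CPM elsewhere, and *Col23a1* at 2.64 CPM against 50.7, 32.0 and 27.3 CPM. The part of any of these cell types in the *Sox2* difference was not tested. An antisense gene without a row in the table, Gm64654, shares 1233 exonic bases with *Sox2*.

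*Map2* (chromosome 1, 66214327 to 66481746, plus strand), the dendritic microtubule protein, showed the widest gap between the WT WD libraries among the genes higher in *Tas1r3*-/- WD. It was at 1069 and 652 CPM in WT WD against 1295 and 1277 CPM in *Tas1r3*-/- WD. The *Tas1r3*-/- WD libraries nearly coincided and WT WD replicate 2 was far below the rest. For *Map2* the log2 difference was 0.58 (standard error 0.26, edgeR's adjusted p = 0.754). Leaving out WT WD replicate 2 lowered it to 0.27, and leaving out WT WD replicate 1 raised it to 0.99. In the latter fit WT WD replicate 2, with its low hypothalamic markers, is the only WT WD library. *Mapt* (chromosome 11, 104122024 to 104222946, plus strand), the axonal counterpart, was at 689 and 590 CPM in WT WD against 702 and 694 CPM in *Tas1r3*-/- WD. Its groups did not overlap, but WT WD replicate 1 was close to both *Tas1r3*-/- WD libraries, and the log2 fold change of 0.13 (standard error 0.14) was 0.02 without WT WD replicate 2.

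*Tubb3* (chromosome 8, 124138163 to 124150092, plus strand), the neuronal beta-tubulin, was at 643 and 926 CPM in WT WD against 558 and 602 CPM in *Tas1r3*-/- WD. The groups did not overlap, and WT WD replicate 2 was the highest library by a wide margin. *Tubb3* differed by -0.44 on the log2 scale (standard error 0.21, edgeR's adjusted p = 0.754), by -0.15 without WT WD replicate 2 and by -0.67 without WT WD replicate 1.

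The 2 stathmins shared the high value in WT WD replicate 2. *Stmn2* (chromosome 3, 8574151 to 8626667, plus strand), found in growing axons, was at 461 and 591 CPM in WT WD against 386 and 434 CPM in *Tas1r3*-/- WD, without overlap, and its log2 fold change of -0.36 (standard error 0.18) was -0.17 without WT WD replicate 2. *Stmn1* (chromosome 4, 134195021 to 134201882, plus strand), of dividing and young neural cells, was at 405 and 689 CPM in WT WD against 394 and 506 CPM in *Tas1r3*-/- WD. The groups of *Stmn1* overlapped, and its log2 fold change of -0.28 (standard error 0.30) changed sign to 0.15 without WT WD replicate 2. *Stmn1* is on the chromosome of *Tas1r3*, 21.7 Mb away. *Ncam1* (chromosome 9, 49413436 to 49710357, minus strand), the adhesion molecule, was at 589 and 426 CPM in WT WD against 595 and 554 CPM in *Tas1r3*-/- WD. WT WD replicate 1 lay between the *Tas1r3*-/- WD libraries, and its log2 difference of 0.18 (standard error 0.19) turned to -0.04 without WT WD replicate 2.

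**Figure D3:**
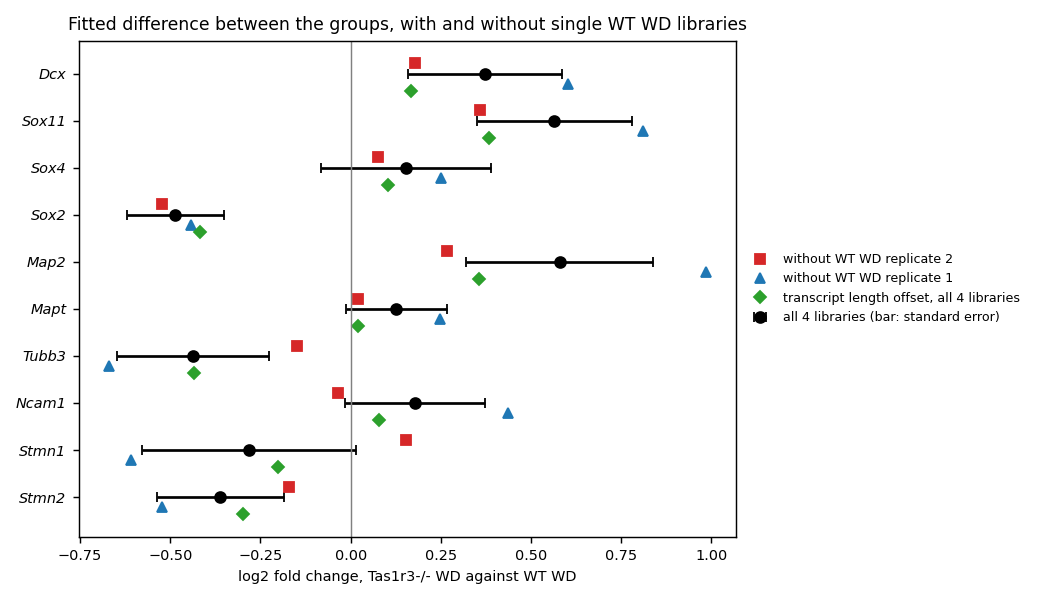
Fitted log2 fold change of each gene, *Tas1r3*-/- WD against WT WD, from all 4 libraries (black, bar 1 standard error), without WT WD replicate 2 (red), without WT WD replicate 1 (blue) and with a correction for transcript length (green). *Sox2* stays between -0.52 and -0.42 in all 4 fits drawn, *Map2* lies between 0.27 and 0.99, and *Stmn1* and *Ncam1* cross 0 without WT WD replicate 2.

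With WT WD replicate 1 left out, and thus with the atypical library alone as WT WD, 4 of the 10 genes met the same rule for a call by edgeR (*Map2* and *Sox11* higher, *Tubb3* and *Stmn1* lower), beside 14.3% of all genes. With WT WD replicate 2 left out, none of the 10 was called, beside 0.218% of all genes. These fits take the spread from the *Tas1r3*-/- WD libraries only, and the lone WT WD library is assumed to vary like them. Against WT WD replicate 1 alone, both *Tas1r3*-/- WD libraries were above for 4 genes (37.6% of all genes) and below for 3 (37.4%), and against WT WD replicate 2 alone they were above for 5 (41.7%) and below for 4 (40.6%).

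Levels of different genes were compared per length, as CPM per kb of the canonical transcript. *Stmn1* (279 CPM per kb, mean of 4 libraries), *Stmn2* (219) and *Tubb3* (213) were the most abundant, and each overlapped with the next in the 4 libraries. *Map2* (111), *Mapt* (105) and *Ncam1* (87.6) followed, again with ranges that overlapped from each to the next. *Sox2* (29.2) and *Sox4* (4.89) each stood apart from their neighbours in this order. *Sox11* (2.47) and *Dcx* (2.07) were the least abundant and did not differ beyond their ranges.

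The deviation of WT WD replicate 2 in the 10 genes was set beside the length of their canonical transcripts. In log2 CPM, that library minus the mean of the other 3 was -0.89 for *Map2* (9705 bases), -0.67 for *Sox11* (8311 bases), -0.53 for *Dcx* (9071 bases), -0.44 for *Ncam1* (6182 bases), -0.24 for *Mapt* (6345 bases) and -0.20 for *Sox4* (4795 bases). It was 0.27 for *Sox2* (2057 bases), 0.47 for *Stmn2* (2139 bases), 0.63 for *Tubb3* (3206 bases) and 0.67 for *Stmn1* (1788 bases). All 6 genes over 4 kb were thus lower and all 4 genes under 4 kb higher in it, at a cut set after these values were seen. Over all genes with a length the median of the same difference went from 0.0778 in the shortest of 4 length classes to 0.0221, -0.0113 and -0.106 in the longest, where *Dcx*, *Sox11*, *Map2*, *Mapt* and *Ncam1* belong, so the members' values were larger than the trend. The interquartile range in that longest class was -0.38 to 0.17, so that it held genes on both sides of 0. WT WD replicate 2 was the lowest library for 5 of the 10 genes and the highest for 3, against 34.6% and 33.8% of all genes. The comparison of genotypes had a like order that did not need this library, since the median log2 difference of *Tas1r3*-/- WD from WT WD replicate 1 alone went from -0.13 in the shortest class to 0.14 in the longest. With a smooth correction for transcript length in each library the log2 fold change of *Map2* was 0.36, of *Sox11* 0.38, of *Dcx* 0.17 and of *Sox2* -0.42. WT WD replicate 2 also differs in its tissue markers, so that length and tissue cannot be told apart in it. The part of transcript length in the differences was otherwise not tested.

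**Figure D4:**
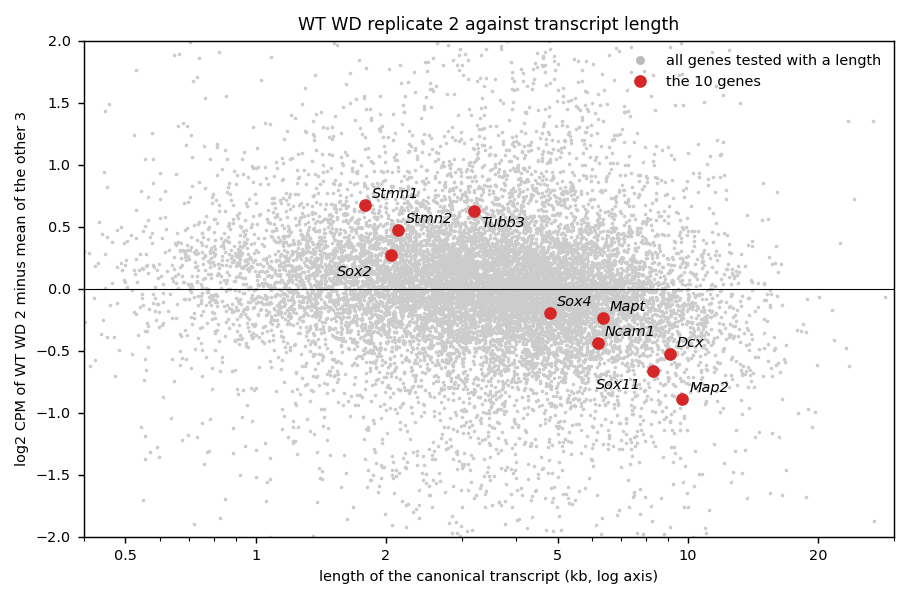
Log2 CPM of WT WD replicate 2 minus the mean of the other 3 libraries (vertical axis) against canonical transcript length (kb, log axis) for all genes tested with a length (grey) and the 10 genes (red); genes beyond the axes are not drawn. The long *Map2* (-0.89), *Sox11* (-0.67) and *Dcx* (-0.53) lie below 0 and the short *Stmn1* (0.67), *Tubb3* (0.63) and *Stmn2* (0.47) above it.

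Of the 10 genes, 4 have several RefSeq transcripts in the table (*Mapt* 5, *Dcx* 4, *Ncam1* 4, *Map2* 3), and the authors' quantification divided the reads among them. For *Dcx*, NM_010025 took 18.6% and 17.6% of the counts in WT WD against 29.2% and 48.0% in *Tas1r3*-/- WD. Its level was 3.51 and 2.46 CPM in WT WD against 6.35 and 9.84 CPM in *Tas1r3*-/- WD, a log2 difference of 1.44 (standard error 0.56, edgeR's adjusted p = 0.938 over 25636 transcripts) that was 1.22 without WT WD replicate 2. The groups did not overlap for this transcript, as was so for 35.7% of all transcripts, 17.9% in this direction and 17.8% in the other. The other 3 *Dcx* transcripts together were at 15.2 and 11.5 CPM in WT WD against 15.5 and 10.7 CPM in *Tas1r3*-/- WD, so that these groups overlapped.

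The split of *Dcx* reads has a limit that shows in the values. NM_001110223 and NM_001110224 kept a ratio of 0.984 in all 4 libraries, and NM_001110222 stood to NM_001110223 at 0.655 in 3 libraries and at 3.15 in WT WD replicate 2. NM_010025 stood to NM_001110223 at 0.612 in WT WD replicate 1, at 1.10 in both WT WD replicate 2 and *Tas1r3*-/- WD replicate 1, and at 2.46 in *Tas1r3*-/- WD replicate 2. Ratios that repeat to 3 digits in libraries with this few reads are not those of independent counts, and the 4 shares are therefore uncertain. The sum does not depend on this split, but it rests on only 85.0 to 136 counts per library. NM_001110222 was at 3.76 and 7.04 CPM in WT WD against 3.77 and 2.61 CPM in *Tas1r3*-/- WD, and NM_001110223 at 5.74 and 2.23 CPM against 5.76 and 3.99 CPM. NM_001110224 followed the latter with 5.83 and 2.27 CPM in WT WD against 5.85 and 4.06 CPM in *Tas1r3*-/- WD. Their log2 differences were -0.75, 0.29 and 0.28 in this order, and -0.23, -0.22 and -0.24 without WT WD replicate 2.

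*Map2* was carried by NM_001310634, with 91.7% and 87.6% of the gene's counts in WT WD against 93.8% and 92.6% in *Tas1r3*-/- WD. Its counts, 5707 and 3468 for WT WD against 7562 and 6749 for *Tas1r3*-/- WD, have the order of the gene, with a log2 difference of 0.62 (standard error 0.28) that was 0.28 without WT WD replicate 2. NM_008632 did not follow, at 49.4 and 53.8 CPM in WT WD against 34.3 and 53.5 CPM in *Tas1r3*-/- WD (log2 fold change -0.23, standard error 0.27, and -0.17 without WT WD replicate 2). NM_001039934 was at 40.3 and 27.2 CPM in WT WD against 45.1 and 40.4 CPM in *Tas1r3*-/- WD, with a log2 difference of 0.34 (standard error 0.26) that was 0.09 without WT WD replicate 2 and 0.67 with only the other WT WD library left out. In the fit over transcripts edgeR's quasi-likelihood test called none of 25636 (0%), with 4.58% at an unadjusted p under 0.05. Which of these RefSeq transcripts hold the exon read by the *Map2* forward primer was not analysed here.

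**Figure D5:**
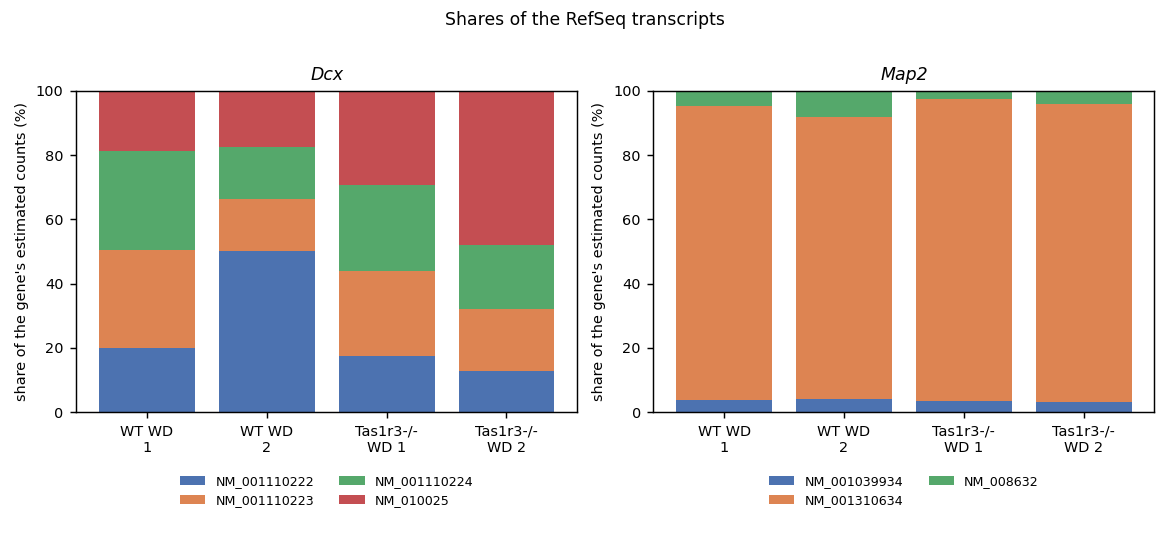
Share (%) of each RefSeq transcript in the estimated counts of *Dcx* (left) and *Map2* (right), 1 bar per library. NM_010025 takes 18.6% and 17.6% of *Dcx* in WT WD against 29.2% and 48.0% in *Tas1r3*-/- WD, and NM_001310634 takes 87.6% to 93.8% of *Map2*.

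Other genes of neurogenesis, the microtubule cytoskeleton and adhesion were taken from 7 lists by role, and 107 of their 111 genes were tested. None was called by edgeR, the mean was higher for 43 and lower for 64 in *Tas1r3*-/- WD, and their median log2 fold change was -0.08 (-0.0048 without WT WD replicate 2). The groups lay apart upward for 19 and downward for 25 of the 107, against 20.5% and 19% of all genes tested, and of all 14325 genes 7307 had the lower mean. At edgeR's unadjusted threshold of 0.05 there were 3 of the 107, which as a share is below the 5.39% of all genes. They were higher in *Tas1r3*-/- WD and are named here after their values were seen: *Tbr1*, a factor of new glutamatergic neurons, at 2.23 and 2.47 CPM in WT WD against 6.77 and 5.44 CPM in *Tas1r3*-/- WD, *Dpysl2* of the growth cone at 146 and 131 CPM and at 188 and 190 CPM, and the adhesion gene *Chl1* at 140 and 113 CPM and at 171 CPM in both.

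Among 26 tested progenitor and neuroblast genes the groups lay apart upward for 2 and downward for 5 (20.5% and 19% of all genes). The latter is a share like that of all genes. Their median was -0.12 on the log2 scale (-0.060 without WT WD replicate 2). The list also holds *Calb2*, *Elavl3*, *Elavl4* and *Rbfox3*, which mature neurons express too, and its division genes *Mki67* and *Top2a* did not pass the filter on low counts. WT WD replicate 2 was the lowest library for 9 of the 26 and the highest for 12 (34.6% and 33.8% of all genes). There *Dlx1* was at 2.34 CPM against 49.2, 38.7 and 41.1 CPM elsewhere, and *Prox1* at 101 CPM against 29.9, 34.6 and 38.3 CPM. Both are named after their values were seen. *Calb2* (calretinin) was at 263 and 583 CPM in WT WD against 211 and 280 CPM in *Tas1r3*-/- WD, and the neuronal RNA-binding gene *Elavl3* at 291 and 321 CPM and at 305 CPM in both. Of 13 tubulins, 11 had their lower mean in *Tas1r3*-/- WD, as did *Tubb3*, and 8 lay apart in that direction (19% of all genes), with a median of -0.26 that was -0.14 without WT WD replicate 2. The leading alpha-tubulin *Tuba1a* was at 1625 and 2316 CPM in WT WD against 1327 and 1499 CPM in *Tas1r3*-/- WD, and *Tuba1b* at 1665 and 1587 CPM and at 1437 and 1558 CPM. Reads of tubulin genes may be shared between close copies, which leaves their split uncertain.

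For 23 structural microtubule proteins the groups lay apart upward for 7 and downward for 5 (20.5% and 19% of all genes), and the median was -0.0089, or 0.094 without WT WD replicate 2. *Map1a* was at 1520 and 1785 CPM in WT WD against 1872 and 1899 CPM in *Tas1r3*-/- WD, and *Map1b* at 1262 and 1662 CPM and at 1810 and 1714 CPM. These relatives of *Map2* in function are longer than it (11539 and 11893 bases). For them WT WD replicate 2 exceeded the mean of the other 3 libraries by 0.02 and 0.08 in log2 CPM. Other long genes of this list lay on both sides, as *Map4* (9178 bases, 0.25) and *Clasp1* (10999 bases, -0.24), named after their values were seen. The part of length in these values was not tested. Without WT WD replicate 2 the log2 fold changes of *Map1a* and *Map1b* were 0.31 and 0.48, against 0.19 and 0.27 with all 4.

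For all 5 neurofilament genes the groups overlapped, as they did for 8669 of all 14325 genes tested. The median of the 5 was -0.19, or 0.17 without WT WD replicate 2. *Nefl* was at 364 and 565 CPM in WT WD against 390 and 429 CPM in *Tas1r3*-/- WD, and *Ina* at 332 and 467 CPM and at 326 and 344 CPM. Of 15 growth cone genes, 1 lay apart upward and 3 downward (20.5% and 19% of all genes), with a median of -0.09, or -0.046 without WT WD replicate 2. *Cfl1*, an actin-severing protein, was at 704 and 868 CPM in WT WD against 603 and 679 CPM in *Tas1r3*-/- WD, and *Gap43* at 660 and 528 CPM and at 514 and 601 CPM.

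Among 12 genes of neural adhesion and of the enzymes that add polysialic acid, 5 lay apart upward and 1 downward (20.5% and 19% of all genes), with a median of 0.12 that was also 0.12 without WT WD replicate 2 and -0.02 with the correction for transcript length. *Cntn1* was at 436 and 449 CPM in WT WD against 478 and 472 CPM in *Tas1r3*-/- WD, and *Cadm3* at 500 and 383 CPM and at 432 and 451 CPM. The 13 kinases and phosphatases of *Map2* and *Mapt* were split evenly, with 3 apart in each direction (20.5% and 19% of all genes) and a median of -0.05, or 0.054 without WT WD replicate 2. *Ppp2r1a*, a subunit of protein phosphatase 2A, was at 598 and 620 CPM in WT WD against 549 and 557 CPM in *Tas1r3*-/- WD, and the kinase *Mapk10* at 250 and 323 CPM and at 245 and 247 CPM.

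The genes whose pattern over the 4 libraries was most like that of *Dcx*, *Sox11* and *Map2* were looked for among 96 listed genes with a mean of at least 10 CPM, by the root mean square difference of centred log2 CPM. For *Dcx* these were *Ncam2* (0.0517), *Chl1* (0.0601) and *Camsap1* (0.0635), and for *Sox11* the same 3 genes led, with *Chl1* first (0.0791). *Map2* was closest to *St8sia4* (0.0997), at 24.0 and 12.5 CPM in WT WD against 27.9 and 30.1 CPM in *Tas1r3*-/- WD, then *Cadm1* (0.145) and *Chl1* (0.168). All have their lowest value in WT WD replicate 2, and 4 libraries carry little detail of a pattern.

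Because the study followed CREB, a factor that binds cAMP response elements, the RefSeq promoters of the 10 genes (250 bases before to 50 after the start, GRCm38.p6) were searched on both strands, and 6 genes had one in the table. None of the 6 held the full element TGACGTCA, which is in 1.79% of 32851 promoters, or its core TGACG, which the full element contains and which is in 20.8%. This says only that these letters are not in these windows.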

How the data were processed

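RNA of the hypothalamus was sequenced on Ion Torrent from mice of both genotypes fed WD. With Partek Flow, the authors mapped the reads by STAR to mm39. The deposited values are an estimated count for each RefSeq transcript, not normalized and exactly whole for 13.0% of values. Every transcript listed has at least 10 counts over the 4 libraries. Transcripts were assigned to symbols by RefSeq accession (GRCm38.p6 table, names only), summed and rounded, and the 147 without a symbol, holding 0.583% to 2.66% of counts, were left out of library sizes. Lengths and coordinates are from GENCODE M39. Tests used edgeR 4.0.16 in R 4.3.3 (quasi-likelihood test, TMM, filterByExpr, Benjamini-Hochberg over all genes, genotype as the only term), whereas the methods of the study name DESeq2, run as an alternative (1.42.0) with limma-trend (3.58.1). Scripts were tested on simulated data, where recovery of changed genes was required only at a spread below that of these libraries. Totals of 5874782 to 6273772 limit precision for *Dcx* and *Sox11*, at 85.0 to 156 counts per library.

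The 10 genes and all lists were chosen with earlier results of these data known. From each of 7 role lists the 2 genes highest in mean CPM were named. Of 13 marker lists, *Rax* is in 2 lists, and *Stmn3* is in a marker and a role list. Strand use in the authors' counting is not given in the sources used here. Alternatives were other scalings, filters and tools, a replicate block, a length offset (loess, span 0.3) and each library left out. Figures were drawn with matplotlib 3.10.9.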

Additional observations from a re-analysis of the deposited data

How the results depend on the processing

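Of 130 refits of the 10 genes' log2 fold changes (10 genes under 13 alternatives), 3 changed sign. The side of the threshold says little here, since the smallest adjusted p over all genes was 0.754 (edgeR's quasi-likelihood test). Refits that kept their sign could still differ in size. Without WT WD replicate 2, *Map2* went from 0.58 to 0.27 and *Mapt* from 0.13 to 0.02. The sign of *Sox4* changed without *Tas1r3*-/- WD replicate 1, with a range of -0.14 to 0.39. Those of *Ncam1* (-0.036 to 0.44) and *Stmn1* (-0.61 to 0.15) changed without WT WD replicate 2. The cause was not tested. All 10 genes kept their direction under the other scalings, filters and tools. Genes called numbered 0 by edgeR and limma-trend, 8 by DESeq2, and 0 to 2121 with a library left out (2121 without WT WD replicate 1 and 32 with the other WT WD library left out). Of the 10 genes, 0 to 4 were called, and their median lay between 0.00156 and 0.25.

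With a library left out, NM_001110223 of *Dcx* lay between -0.22 and 1.09, NM_001110224 between -0.24 and 1.12, and of *Map2* NM_001310634 between 0.28 and 1.08, NM_001039934 between 0.09 and 0.67 and NM_008632 between -0.58 and 0.060. List medians lay between -0.14 and -0.060 for progenitor and neuroblast genes, -0.0037 and 0.094 for microtubule proteins, -0.48 and 0.17 for neurofilaments, -0.15 and -0.046 for growth cone genes, 0.12 and 0.17 for adhesion genes and -0.12 and 0.054 for kinases and phosphatases.

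Replicate numbers are shared between the groups, but the same-numbered libraries did not clearly deviate together (correlation 0.0818). With a replicate block no gene was called, the median of the 10 genes was 0.13, *Map2* was at 0.62 and *Sox2* at -0.49.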

Other observations

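Markers of other brain regions and cells outside the comparisons above gave the following sums in WT WD replicates 1 and 2 and then *Tas1r3*-/- WD replicates 1 and 2. Cortex and hippocampus markers were at 1074, 1336, 1067 and 1073 CPM, and striatum markers at 422, 228, 570 and 386 CPM. Markers of mature neurons were at 6762, 8609, 6426 and 7104 CPM. WT WD replicate 2 was the highest library for 7 of these 11 markers and the lowest for 3, the GABA genes *Gad1* (402, 46.1, 412 and 422 CPM), *Gad2* (446, 69.3, 479 and 475 CPM) and *Slc32a1* (241, 24.9, 235 and 229 CPM), which are named here after their values were seen. Oligodendrocyte markers were at 5314, 6580, 6303 and 6426 CPM, those of their precursors at 427, 362, 399 and 354 CPM, those of microglia at 365, 333, 369 and 312 CPM, and those of endothelium at 245, 297, 263 and 259 CPM. The summed level of the 10 genes was 3989, 3992, 4052 and 4185 CPM, since the lower *Map2* and *Ncam1* in WT WD replicate 2 stood beside the higher *Tubb3* and stathmins.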
